A study of Mus musculus with 9 samples.

Results

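The interferon-induced GTPases described here are 10 mouse genes of 3 related families, read from a table of RNA-seq counts of 55228 genes. They are the guanylate-binding protein genes *Gbp2*, *Gbp3* and *Gbp7*, the immunity-related GTPase (IRG) genes *Igtp*, *Irgm1*, *Irgm2*, *Iigp1* and *Ifi47*, and the very large GTPase genes *Gvin1* and *Gm4070*. The genes were chosen by their families and by earlier results of these same counts, in which they differed between *KD* and *WT* cultures, so their differences between lines are given as a description, with no p, and counts of members that met a calling rule are printed only beside the share of all genes that did. The cells were undifferentiated HC11, a mouse mammary epithelial line, in medium with serum, insulin and epidermal growth factor and with no other treatment. There were 3 cultures each of the parental cells (*WT*) and of *KD1* and *KD2*, labelled Vangl2 knockout 1 and Vangl2 knockout 2. Each was made with Cas9, 1 of a pair of guides against *Vangl2*, a planar cell polarity gene, and a repair template that carries stop codons, and each was grown from a single colony. Each therefore stands for 1 clone, and a control clone that went through the procedure with no *Vangl2* guide was not analysed here, so the edit cannot be told apart from cloning. Interferon was not among the stated additions to the medium.

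All 3 families are classically induced by interferon gamma, and many members also by type I interferon. Guanylate-binding proteins (GBPs) are large GTPases that assemble on membranes, where they coat and help to break the vacuoles of intracellular bacteria and parasites. The IRG proteins fall into regulators, which sit on the cell's own membranes and keep the others inactive there (*Irgm1*, *Irgm2* and *Igtp*), and effectors, which load onto pathogen vacuoles (*Iigp1* and *Ifi47*). The very large inducible GTPases form a cluster of near-copies of one another, and little is known of what they do.

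Between 19231428 and 28360592 reads per culture were counted on genes, and a floor of 3 counts, taken as the least a library can show, corresponded to 0.0999 to 0.154 CPM (counts relative to a library size scaled by TMM). *KD2* replicate 3 stood apart from its line, with a chi-square value per degree of freedom of 17.4 and 22.1 against the other *KD2* cultures, which differed from each other by 1.74. *WT* replicate 1 stood apart as well, at 13.1 and 10.7 against the other *WT* cultures, which differed from each other by 3.38, while the *KD1* cultures differed by 1.37 to 1.81. The *Vangl2* transcript was at 3.38 to 4.20 CPM in *WT*, 1.89 to 2.78 in *KD1* and 3.64 to 4.43 in *KD2*. An inserted stop codon need not change the amount of a transcript, so these values do not check the labels. The 6 epithelial markers, *Krt8*, *Krt18*, *Krt5*, *Krt14*, *Epcam* and *Cdh1*, summed to 4820 to 5390 CPM in *WT*, 5460 to 5610 in *KD1* and 2870 to 3560 in *KD2*. Because GTPases of these families are abundant in activated macrophages and lymphocytes, 10 immune markers were read as well, and they summed to 3.12 to 6.04 CPM in *WT*, 7.26 to 8.69 in *KD1* and 4.93 to 6.15 in *KD2*. Most of these counts were *Cd68*, a lysosomal gene that epithelial cells also use. *Ptprc*, which marks all leukocytes, had at most 2 counts in any culture, and *Adgre1* and *Nkg7* were at 0 in all 9 cultures. *Lyz2* was at 27 to 41 counts in *KD2* and at 0 or 1 elsewhere. The 7 endothelial and stromal markers summed to 14.9 to 20.3 CPM in *WT*, 13.2 to 15 in *KD1* and 86.2 to 95.2 in *KD2*, where most of the counts were *Pdgfrb*. *Pdgfra*, another stromal receptor gene, had 133 to 218 counts in *WT*, 180 to 256 in *KD1* and 331 to 490 in *KD2*. *Col1a1*, a collagen gene, was lowest in *KD1* (13 to 17 counts, against 108 to 216 in *WT* and 102 to 115 in *KD2*), and *Pecam1*, an endothelial marker, was highest there (122 to 132, against 39 to 51 and 19 to 28). *Cdh5*, another endothelial marker, went the other way in *KD2*, with 0 or 1 counts in *WT*, 5 to 7 in *KD1* and 7 to 24 in *KD2*. *Kdr* and *Dcn* had at most 2 and 6 counts in any culture. The part of these shifts in the results below was not tested.

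The promoters of the members are shown first, because genes that respond to interferon often carry an interferon-stimulated response element (ISRE), bound by IRF factors, or a gamma-activated site (GAS). Windows from 250 bases before to 50 bases after the start site were taken from RefSeq (GRCm38.p6), which matched 7 of the 10 members. *Gvin1*, *Gm4070* and *Iigp1* have no entry in the table. The letters GAAANNGAAA were searched on both strands for ISRE-like sequence and TTCNNNGAA, which reads the same on both strands, for GAS-like sequence. The ISRE letters were found in 6 of the 7 genes, against 3.44% of 32851 mouse promoters, and the GAS letters in 3 of 7, against 8.3%. The members were counted per gene, with the start sites of *Gbp3* pooled, and the mouse promoters per window. All 3 of these, *Igtp*, *Irgm2* and *Gbp7*, held both kinds, as did 0.454% of all promoters. *Ifi47* held neither, which says only that these letters are not in that window. A match of letters is not a measured binding site.

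Of each promoter, 80 bases before the start site are given 5′ to 3′ along the gene, with the matched letters in capitals. The first 3 show an ISRE match read on the opposite strand in the GBP genes, the next 3 the IRG regulators, and the last *Ifi47* for contrast.
Gbp2 (chr3:142620569-142620648, + strand): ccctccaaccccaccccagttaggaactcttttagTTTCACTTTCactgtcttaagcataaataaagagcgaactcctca
Gbp3 (chr3:142559964-142560043, + strand): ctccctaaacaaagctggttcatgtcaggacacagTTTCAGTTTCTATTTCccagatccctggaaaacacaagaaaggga
Gbp7 (chr3:142530221-142530300, + strand): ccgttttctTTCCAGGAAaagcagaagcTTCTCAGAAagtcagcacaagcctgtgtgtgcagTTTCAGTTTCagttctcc
Igtp (chr11:58199476-58199555, + strand): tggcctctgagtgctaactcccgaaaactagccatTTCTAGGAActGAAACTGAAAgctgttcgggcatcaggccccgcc
Irgm2 (chr11:58214872-58214951, + strand): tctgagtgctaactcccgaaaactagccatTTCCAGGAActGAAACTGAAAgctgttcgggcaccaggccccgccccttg
Irgm1 (chr11:48871421-48871500, - strand): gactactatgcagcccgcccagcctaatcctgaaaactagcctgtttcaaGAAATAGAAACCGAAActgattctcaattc
Ifi47 (chr11:49076507-49076586, + strand): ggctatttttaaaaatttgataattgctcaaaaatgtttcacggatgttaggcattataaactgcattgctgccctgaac

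For *Gbp3* the table holds a further start site, whose window has no match. In *Gbp3* and in *Irgm1* the capitals hold 2 ISRE matches that overlap. In *Gbp7* they hold 2 GAS matches, at -106 and -87 from the start site, followed by an ISRE match at -53. In *Igtp* the GAS match began at -45 and the ISRE match at -34, and in *Irgm2* they began at -75 and -64, so that the first bases were 11 apart in each. The 75 bases around this pair were identical at 73 positions between *Igtp* and *Irgm2*. The same arrangement with the same spacing occurred in 5 of all 32851 promoters, and all 5 belonged to IRG genes, namely *Igtp*, *Irgm2*, *Tgtp1*, *Tgtp2* and *Gm12185*. *Tgtp1* and *Tgtp2*, which encode the same kind of effector IRG, were identical to *Igtp* at 43 and 48 of the 75 positions. The spacing was singled out after it had been seen in *Igtp* and *Irgm2*.
Tgtp1 (chr11:48992285-48992364, - strand): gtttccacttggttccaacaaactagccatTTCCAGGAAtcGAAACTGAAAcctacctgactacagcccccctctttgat
Tgtp2 (chr11:49064244-49064323, - strand): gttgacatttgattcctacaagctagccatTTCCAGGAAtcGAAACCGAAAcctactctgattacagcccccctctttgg
Gm12185 (chr11:48927219-48927298, - strand): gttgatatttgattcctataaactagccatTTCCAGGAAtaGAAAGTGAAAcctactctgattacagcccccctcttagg

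**Figure D1:**
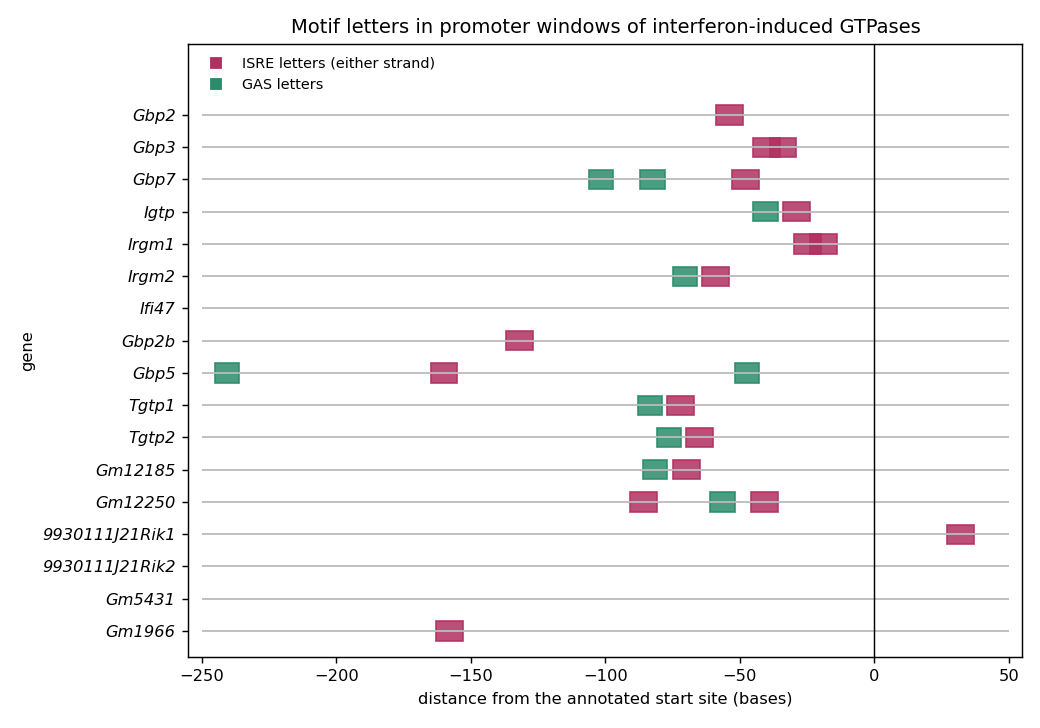
Positions of the ISRE letters (magenta) and GAS letters (green) in the promoter windows of 7 members (from *Gbp2* down to *Ifi47*) and 10 other genes of the families, in bases from the start site. The matches of the members all begin between -106 and the start site, and *Ifi47*, *9930111J21Rik2* and *Gm5431* have none.

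All 9 members with enough counts to be tested were higher in *KD2* than in *WT*, with *KD1* between the lines for 8 of them. *Gbp2*, *Gbp3*, *Gbp7*, *Igtp*, *Irgm1* and *Irgm2* were measurable in every *WT* culture, whereas *Gm4070*, *Iigp1* and *Ifi47* were at or under 3 counts in all *WT* cultures and *Gvin1* stayed at or under 2 counts throughout. The CPM of all 10 members together was 18.4 to 20.1 in *WT*, 83.3 to 85.4 in *KD1* and 185.1 to 217.2 in *KD2*. A gene is called here when edgeR's quasi-likelihood test over 15253 genes gave it an adjusted p under 0.05 and its log2 fold change was beyond 1 in either direction. By that rule 8 of the 9 tested members were called higher in *KD1* than in *WT*, where 9.34% of all genes tested were called higher and 7.49% lower (16.8% either way). In *KD2* it was 9 of 9, where 14.5% of genes were called higher and 6.71% lower (21.2% either way). Against *KD1*, 8 of 9 were called higher in *KD2*, where 14.7% of genes were called higher and 8.58% lower (23.3% either way). Every *KD1* culture was above every *WT* culture for 8 of the 9, as for 32.4% of all genes, every *KD2* culture above every *WT* culture for 9 of 9, as for 34.6%, and every *KD2* culture above every *KD1* culture for 9 of 9, as for 36.7%. *Iigp1* and *Ifi47* reached the filter only through their counts in *KD2*, so the filter sets these counts in part. The members were also chosen with these contrasts known, so nothing is read from these counts. The median log2 fold change of the 9 members was 2.74 for *KD1* against *WT*, 4.31 for *KD2* against *WT* and 1.48 for *KD2* against *KD1*, while the median of all genes was -0.03, 0.01 and 0.02. As *WT* was at the floor for 3 of the 9, the fitted values of those genes depend on the prior count, and with them at their lower bounds the medians against *WT* were 2.04 and 4.24. The choice of members fixes the direction of these medians.

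**Figure D2:**
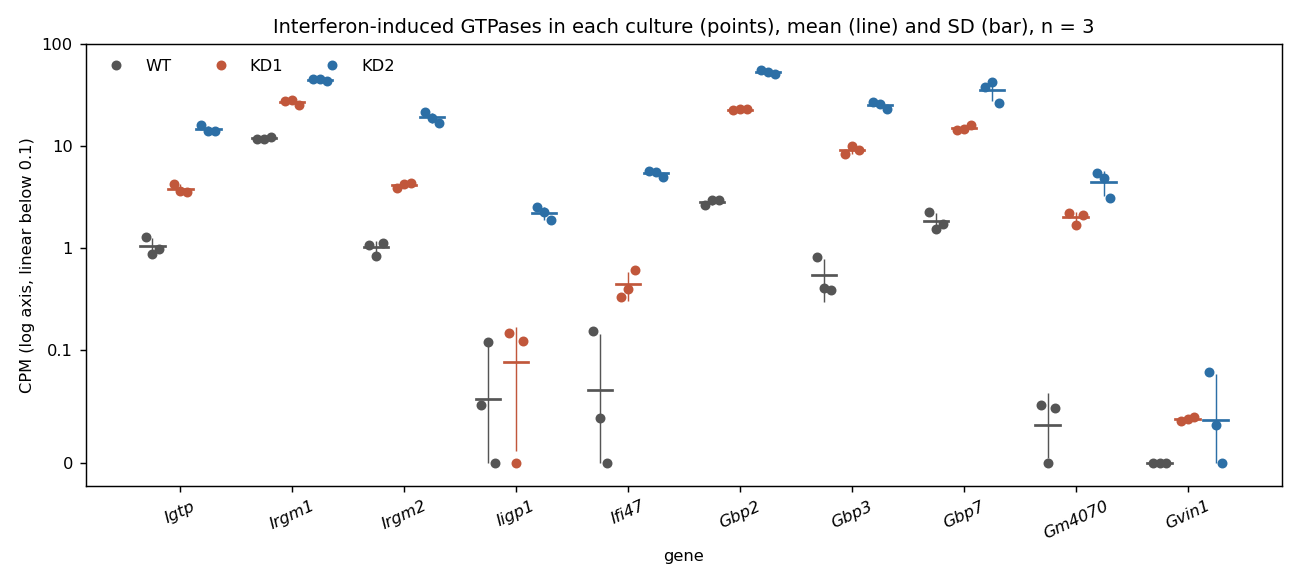
CPM of the 10 members (log axis, linear below 0.1) in each of the 9 cultures, with the mean as a line and the SD as a bar (n = 3 per line; *WT* grey, *KD1* red, *KD2* blue). For 9 genes every *KD2* point lies above every *KD1* and *WT* point, and *Gvin1* lies below 0.1 CPM in all cultures.

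The chromosome 3 GBP genes were higher in *KD1* than in *WT* and higher again in *KD2*. *Gbp2* (ENSMUSG00000028270, chr3:142620602-142638008, + strand) carries the lipid anchor that lets a GBP attach to vacuoles. It was at 2.61, 2.96 and 2.93 CPM in *WT*, 22.4, 22.9 and 22.9 in *KD1* and 56.0, 53.6 and 50.9 in *KD2*. The 3 lines did not overlap, and the spread within each was small beside the distances between them. The fitted log2 fold change of *Gbp2* was 3.00 ± 0.0893 (SE) in *KD1* and 4.23 ± 0.0856 in *KD2*, or 7.97-fold and 18.8-fold. *KD2* exceeded *KD1* 2.36-fold.

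*Gbp3* (ENSMUSG00000028268, chr3:142560026-142573209, + strand) lies between *Gbp7* and *Gbp2* in the cluster. It was at 0.820, 0.400 and 0.391 CPM in *WT*, 8.34, 9.91 and 9.07 in *KD1* and 26.8, 25.9 and 23.2 in *KD2*. The lines again did not overlap, and *WT* replicate 1 was the highest of its line. Of the members above the floor in *WT*, *Gbp3* had the largest fitted change, 17.2-fold in *KD1* (log2 4.11 ± 0.195) and 47.9-fold in *KD2* (5.58 ± 0.175). Without *WT* replicate 1 the log2 values were 4.51 and 5.98.

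*Gbp7* (ENSMUSG00000040253, chr3:142530342-142550149, + strand), which has been tied to autophagy and to the assembly of the oxidase that kills engulfed bacteria, was at 2.25, 1.52 and 1.71 CPM in *WT*, 14.4, 14.7 and 16.0 in *KD1* and 38.0, 42.6 and 26.7 in *KD2*. *KD2* replicate 3 was the lowest of its line by a wide margin but still above every *KD1* culture. *Gbp7* was 8.30-fold higher in *KD1* than in *WT* (log2 3.05 ± 0.205) and 19.9-fold higher in *KD2* (4.31 ± 0.193). Its exons overlap the processed pseudogene *Gm43802* by 637 bases on the same strand, and 12.7% of the windows of 50 bases in its transcripts occur in another gene, mostly that one, so reads there can be counted on either or neither. *KD2* exceeded *KD1* by 2.78-fold for *Gbp3* and 2.39-fold for *Gbp7*, close to the value of *Gbp2*.

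Among the IRG regulators, *Irgm1* had the highest level in *WT* and the smallest change of any tested member against *WT* in *KD2*. *Irgm1* (ENSMUSG00000046879, chr11:48861968-48871683, - strand), which also acts in autophagy and on mitochondria, was at 11.8, 11.6 and 12.2 CPM in *WT*, 27.4, 28.0 and 25.3 in *KD1* and 45.4, 45.4 and 43.4 in *KD2*. Each line was set apart from the next without overlap. The change was 2.26-fold in *KD1* (log2 1.18 ± 0.0707) and 3.77-fold in *KD2* (1.91 ± 0.0694), and *KD2* exceeded *KD1* 1.66-fold.

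*Igtp* (ENSMUSG00000078853, chr11:58199556-58207591, + strand), also called Irgm3, was at 1.28, 0.880 and 0.977 CPM in *WT*, 4.28, 3.58 and 3.55 in *KD1* and 15.9, 14.2 and 13.97 in *KD2*. Its neighbour *Irgm2* (ENSMUSG00000069874, chr11:58199618-58222782, + strand) was at 1.08, 0.840 and 1.12 CPM in *WT*, 3.84, 4.25 and 4.32 in *KD1* and 21.3, 18.9 and 16.9 in *KD2*. Neither gene overlapped between lines. *Igtp* was 3.67-fold higher in *KD1* (log2 1.88 ± 0.174) and 14.1-fold higher in *KD2* (3.82 ± 0.151), and *Irgm2* 4.11-fold (2.04 ± 0.175) and 18.9-fold (4.24 ± 0.148). Against *KD1*, *KD2* was 3.85-fold higher for *Igtp* and 4.61-fold higher for *Irgm2*. These values exceed those of the 3 GBP genes in the same contrast, whereas in *KD1* against *WT* the GBP genes had the larger values. The annotated exons of *Igtp* and *Irgm2* overlap by 162 bases on the same strand, and 11.8% of the windows of *Igtp* and 7.83% of those of *Irgm2* occur in another gene, so their counts are not fully separate.

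The effector IRG genes were close to the limit of detection outside *KD2*. *Iigp1* (ENSMUSG00000054072, chr18:60376027-60392634, + strand), also known as Irga6, had 1, 3 and 0 counts in *WT*, 4, 0 and 3 in *KD1* and 62, 68 and 38 in *KD2*, or 2.51, 2.26 and 1.87 CPM in *KD2*. *WT* and *KD1* overlapped at the floor, and a difference between them was not detectable at this depth. *KD2* was at least 15.8-fold higher than *WT*, taking *WT* at the floor of 3 counts per library.

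*Ifi47* (ENSMUSG00000078920, chr11:49076587-49096974, + strand), also known as Irgd, had 3, 1 and 0 counts in *WT*, 9, 10 and 15 in *KD1* and 142, 168 and 101 in *KD2*. In CPM it was at 0.332, 0.393 and 0.605 in *KD1* and 5.74, 5.59 and 4.97 in *KD2*. Every *KD1* culture was above every *WT* culture, but by few counts. *Ifi47* was at least 3.17-fold higher than *WT* in *KD1* and at least 38.8-fold higher in *KD2*, and *KD2* exceeded *KD1* 12.2-fold (log2 3.61 ± 0.246). Its exons overlap 111 bases of *Olfr56* on the same strand and 106 bases of the pseudogene *Gm12188* on the other.

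The very large GTPase genes could not be read one by one. *Gvin1* (ENSMUSG00000045868, chr7:106156556-106215326, - strand) and *Gm4070* (ENSMUSG00000078606, chr7:105895139-105953967, - strand) share most of their sequence, and 98.3% of the 50-base windows of *Gvin1* occur in *Gm4070*, as do 95.0% of those of *Gm4070* in *Gvin1*. The treatment of multi-mapping reads in the counting is not given in the sources used here. *Gm4070* had 1, 0 and 1 counts in *WT*, 59, 43 and 52 in *KD1* and 134, 146 and 63 in *KD2*, whereas *Gvin1* had 0, 0 and 0, then 1, 1 and 1, then 2, 1 and 0. The *KD* cultures were all above *WT* for *Gm4070*, and *KD2* replicate 3 was nearer to *KD1* than the other *KD2* cultures were. *Gm4070* was at least 14.2-fold higher than *WT* in *KD1* and at least 31.8-fold higher in *KD2*, and was 2.26-fold higher in *KD2* than in *KD1*. As 97.8% of its windows occur in another gene, these counts cannot be assigned to *Gm4070* alone.

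The order of the *KD* lines was opposite in *Gm8995*, a transcribed pseudogene of the same chromosome 7 family of which 18.6% of windows occur in another gene. It had 17, 12 and 4 counts in *WT*, 1227, 1128 and 1113 in *KD1* and 360, 442 and 207 in *KD2*, and was at 0.515 ± 0.339, 44.85 ± 0.473 and 13.2 ± 2.57 CPM (SD, n = 3). It rose in *KD1* (log2 6.45 ± 0.222, adjusted p = 1.3e-11) and in *KD2* (4.69 ± 0.251, adjusted p = 1.9e-09), and was lower in *KD2* than in *KD1* (-1.76 ± 0.132, adjusted p = 3.9e-08). *Gm4759*, another pseudogene of the family, with 2.51% of windows shared, had 0, 0 and 1 counts in *WT*, 1, 0 and 2 in *KD1* and 108, 136 and 59 in *KD2*. Its level in *KD2* was at least 28.1-fold that of *WT* and at least 33.7-fold that of *KD1*. *Gm4759* could be tested only through its counts in *KD2*, so no p is given. Summed over the 7 listed genes, the very large GTPases had 18, 12 and 6 counts in *WT*, 1289, 1174 and 1171 in *KD1* and 607, 731 and 333 in *KD2*. The sum was higher in *KD1* than in *KD2* (log2 fold change of *KD2* against *KD1* -1.09), opposite to *Gm4070*, because *Gm8995* held most of its counts. Outside the lists, and chosen after its values were seen, *9130208D14Rik*, a neighbouring pseudogene with windows in common with *Gm4070*, had 0 or 1 counts in *WT*, 41 to 49 in *KD1* and 18 to 53 in *KD2*.

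**Figure D3:**
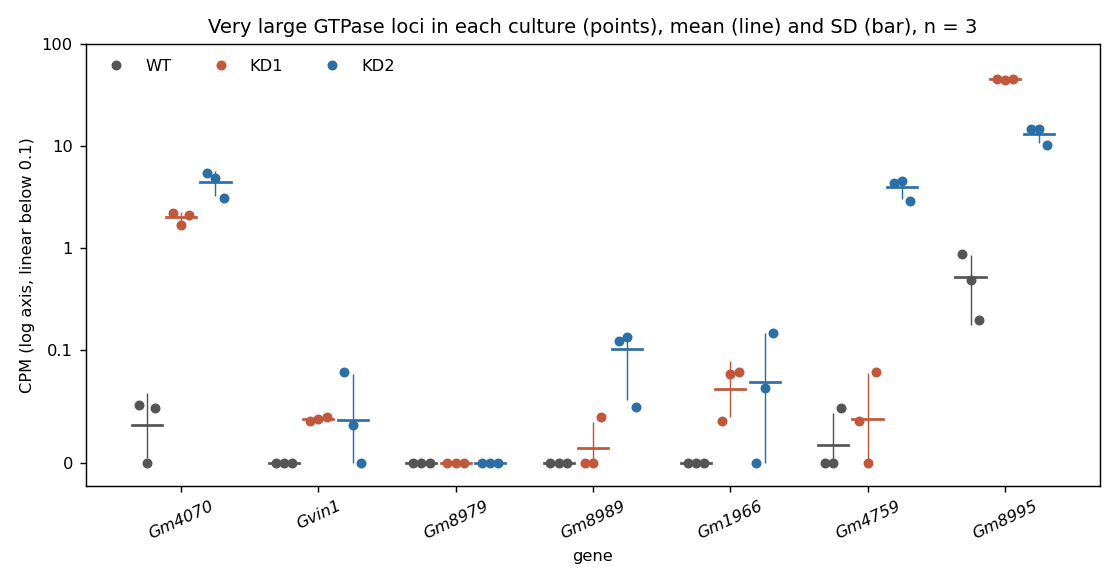
CPM of the 7 listed very large GTPase genes (log axis, linear below 0.1) in each culture, with mean (line) and SD (bar), n = 3 per line. *Gm4070* and *Gm4759* are highest in *KD2*, *Gm8995* is highest in *KD1* (near 44.85 CPM), and *Gvin1* and *Gm8979* stay at or near 0.

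Per kilobase of exon, *Irgm1* led in *WT* and *Gbp2* in both *KD* lines. In *WT* the level per kilobase was 2.05 ± 0.0496 CPM for *Irgm1*, 1.13 ± 0.0765 for *Gbp2*, 0.517 ± 0.103 for *Igtp* and 0.326 ± 0.0679 for *Gbp7* (SD, n = 3). *Gbp7*, *Irgm2* and *Gbp3* followed each other within their spread, and *Ifi47*, *Iigp1* and *Gm4070* lay at or under 0.0261. In *KD1* the order began with *Gbp2* at 9.03 ± 0.116, *Irgm1* at 4.63 ± 0.241, *Gbp3* at 2.79 ± 0.240 and *Gbp7* at 2.68 ± 0.154, of which only *Gbp3* and *Gbp7* were within their spread of each other. In *KD2*, *Gbp2* was at 21.3 ± 1.02 CPM per kilobase, apart from all others. *Gbp3* (7.75 ± 0.572), *Irgm1* (7.70 ± 0.197), *Igtp* (7.25 ± 0.523), *Gbp7* (6.37 ± 1.46) and *Irgm2* (5.16 ± 0.600) formed a group in which each overlapped the next. *Ifi47* was lower at 2.20 ± 0.166, and *Gm4070* (0.481 ± 0.130) and *Iigp1* (0.380 ± 0.0552) were within their spread of each other.

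In *KD2* replicate 3 all 9 tested members were lower than in the mean of the other *KD2* cultures. The ratio was 0.603 for *Gm4070* and 0.661 for *Gbp7*, and between 0.784 (*Iigp1*) and 0.957 (*Irgm1*) for the rest. With each culture left out in turn, the log2 fold change in *KD2* against *WT* ranged from 4.17 to 4.51 for *Gbp7*. For *Irgm1* it ranged from 1.90 to 1.96, with 1.96 without *KD2* replicate 3. For *Gm4070*, with *WT* at the floor, it ranged from 6.37 to 7.38.

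Further genes of the same families were counted beside the members. The list held 31 genes, 27 of them in the table and 14 with enough counts to be tested, and 5 were at or under 3 counts in every culture. In *KD1*, 5 of the 14 were called higher than *WT* and 1 lower, and in *KD2* all 14 were called higher. Between the lines, 13 were higher in *KD2* and 1, *Gm8995*, was lower. Of the 14, 9 were at or under 10 counts in every *WT* and *KD1* culture and could be tested through their counts in *KD2*, so the filter sets these counts in part, and with only the *WT* and *KD1* cultures fitted 5 genes were tested, 4 of them called higher and 1 lower. Of all genes tested, 9.34% were called higher in *KD1*, 14.5% in *KD2* and 14.7% in *KD2* against *KD1*. The list was also written with results of these data known, and nothing is read from its counts. The 9 genes tested only through *KD2* are described with no p.

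Of the other GBP genes, *Gbp2b* and *Gbp9* were above the floor in all 3 lines. *Gbp2b*, formerly Gbp1, followed *Gbp2* with log2 fold changes of 2.66 ± 0.122 in *KD1* (adjusted p = 2.9e-10) and 3.80 ± 0.117 in *KD2* (adjusted p = 1.2e-11). The chromosome 5 genes differed from it in *KD2*. *Gbp9* was at 0.526 ± 0.261, 2.66 ± 0.358 and 34.3 ± 6.01 CPM in *WT*, *KD1* and *KD2* (SD, n = 3), which is 12.9-fold higher in *KD2* than in *KD1* (adjusted p = 1.4e-10). *Gbp4* had 1 to 3 counts in *WT*, 18 to 40 in *KD1* and 258 to 454 in *KD2*, at least 8.05-fold and 104-fold above *WT* (adjusted p = 1.7e-05 and 1.6e-10). *Gbp8* had 0 counts in *WT*, 2 to 4 in *KD1* and 56 to 92 in *KD2*, at least 20.5-fold above *WT* in *KD2*. It was called in *KD1* too, but by these few counts, whose ratio to the floor is 0.835, so they set no lower bound above *WT*. *Gbp5*, which promotes inflammasome assembly, had 0 to 2, 2 to 5 and 16 to 27 counts, at least 6.61-fold above *WT* in *KD2*. It was not called in *KD1*. *Gbp4*, *Gbp8* and *Gbp9* overlap one another by 60 or 61 bases of exon on the same strand.

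Of the 5 other IRG genes tested, 4 were at or under 10 counts in every *WT* and *KD1* culture, so that a difference between these lines was not detectable at this depth. The remaining one, *9930111J21Rik2*, had 25, 22 and 19 counts in *WT*, 7, 10 and 5 in *KD1* and 312, 393 and 169 in *KD2* (log2 -1.82 ± 0.391, adjusted p = 0.0012, and 3.48 ± 0.220, adjusted p = 9.3e-09). It shares 59.75% of its windows with other genes, mainly its near-copy *9930111J21Rik1*. That gene had 0 or 1 counts in *WT*, 0 to 2 in *KD1* and 34 to 56 in *KD2* (at least 12.9-fold above *WT*). *Tgtp1*, the effector Irgb6, had 0 or 1 counts in *WT*, 0 to 4 in *KD1* and 33 to 73 in *KD2*, at least 15.0-fold above *WT*. It shares 81.2% of its windows, mostly with *Tgtp2*. *Gm12185* and *Gm4951* rose at least 5.63-fold and 4.78-fold in *KD2* from at most 1 count in any *WT* culture. The Mx genes, dynamin-like GTPases that block viruses, were higher in *KD2* than in *WT*. The difference was at least 5.42-fold for *Mx1* and a log2 fold change of 3.83 ± 0.331 for *Mx2* (4.60 without *WT* replicate 1). In *KD1*, *Mx1* and *Mx2* were not called.

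**Figure D4:**
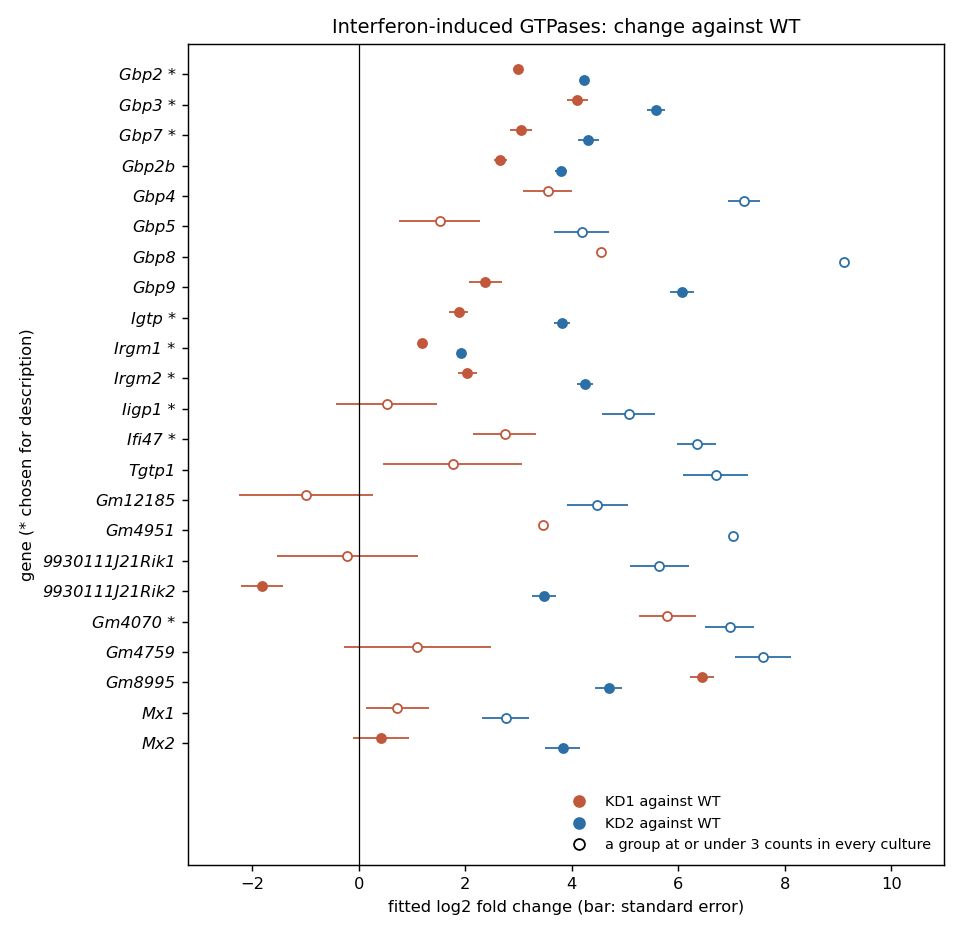
Fitted log2 fold change against *WT*, with its standard error, of the 9 tested members (asterisk) and the 14 other tested genes of the families in *KD1* (red) and *KD2* (blue). Open points mark a comparison with a group at or under 3 counts in every culture, whose fitted value depends on the prior count; *Gm8995* is the only gene with a *KD1* point to the right of its *KD2* point.

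As a contrast, 11 dynamin, atlastin, mitofusin and similar GTPase genes that are not known as interferon-induced were all tested. In *KD2*, 2 of them were called higher, as were 14.5% of all genes tested. They were *Dnm1*, a dynamin of membrane fission (log2 3.17 ± 0.127, adjusted p = 1.3e-10), and *Atl1*, an atlastin of the endoplasmic reticulum (1.91 ± 0.131, adjusted p = 2.1e-08). *Dnm1* was lower in *KD1* (-1.22 ± 0.180, adjusted p = 5.2e-05), the only call in that line, where 7.49% of all genes tested were called lower. The median log2 fold change of the 11 was -0.05 in *KD1* and -0.13 in *KD2*. *Dnm3* was lower in *KD2* than in *KD1* (-1.30 ± 0.265, adjusted p = 6.0e-04).

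Genes that lie beside the members were read to see how far the change extended along the chromosome. Within 500000 bases of the chromosome 3 cluster, 5 tested genes outside the families had median log2 fold changes of -0.08 in *KD1* and 0.55 in *KD2*. Around *Irgm1* and *Ifi47* the 9 neighbours had medians of -0.08 and 0.23, and around *Igtp* and *Irgm2* the 14 neighbours had 0.09 and -0.23. The 14 neighbours of the very large GTPase genes on chromosome 7 had -0.10 and 0.22, and the 8 neighbours of *Iigp1* on chromosome 18 had -0.06 and 0.24. Among the 14 is *9130208D14Rik*, which is in no list but holds 16.4% of the windows of *Gm4070*. It is therefore not a clear case of a gene outside the families. The medians of all tested genes on chromosomes 3, 7, 11 and 18 lay between -0.04 and 0.15 in *KD1* and between -0.02 and 0.23 in *KD2*. Some single neighbours were called, and they are named here after their values were seen. Of all genes tested, 9.34% were called higher in *KD1* and 14.5% in *KD2*, and 7.49% and 6.71% were called lower. Beside *Iigp1*, 2 of the 8 were called higher in *KD2*, *Cd74*, the invariant chain of MHC class II (log2 4.28, and 2.03 in *KD1*, where it was the 1 called), and *Synpo*, an actin-associated gene (2.21). On chromosome 7, 3 of the 14 were called higher in *KD2*, *9130208D14Rik*, *Dnhd1* (3.52) and *Apbb1* (1.15). In *KD1*, *9130208D14Rik* was called higher there and *Apbb1* lower (-1.02). Beside *Irgm1* and *Ifi47*, *Psme2b* was the 1 called of 9 in *KD2* (3.48), and *Trim7* the 1 called in *KD1* (1.21). The exons of *Psme2b* overlap those of the IRG gene *9930111J21Rik1* by 41 bases on the same strand. Beside *Igtp* and *Irgm2*, 2 of 14 were called lower in *KD2*, and *4930438A08Rik* was the 1 called in *KD1* (1.87). Around the chromosome 5 GBP genes the 4 tested neighbours had medians of 0.98 in *KD1*, with 2 called higher, and 0.05 in *KD2*, with 1.

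Upstream of these GTPases, 21 of 25 listed genes of interferon signalling were tested, and 8 were called higher in *KD1* and 7 in *KD2*. Of all genes tested, 9.34% were called higher in *KD1* and 14.5% in *KD2*. The list was written with results of these data known, so nothing is read from these counts. The ligand genes *Ifnb1* and *Ifng* did not reach the filter, with at most 2 and 7 counts in any culture, so any difference in them was not detectable at this depth, and *Ifnl2* and *Ifnl3* did not reach it either. Of the receptor genes, *Ifngr2* rose in *KD1* (log2 1.24 ± 0.0635, adjusted p = 9.2e-10) and *Il10rb*, a chain of the interferon lambda receptor, too (1.09 ± 0.0896, adjusted p = 1.5e-07). In *KD2* the value of *Ifngr2* was 0.20 ± 0.0645, and *KD2* was lower than *KD1* (-1.04 ± 0.0626, adjusted p = 3.7e-09), a call lost with library size alone, where the log2 value was -0.91. *Il10rb* was at 0.59 ± 0.0922 in *KD2*, under the fold limit. No receptor gene was called in both lines. Under the fold limit, *Ifngr1* was lower in *KD1* and *KD2* (-0.77 ± 0.0614 and -0.35 ± 0.0605), and *Ifnar2* was higher in both (0.98 ± 0.0765 and 0.68 ± 0.0775). *Ifnar1* was at 0.21 ± 0.0565 and -0.16 ± 0.0570.

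Interferon regulatory factors (IRF), which are known to bind ISRE sequence, included genes called in both lines. *Irf1* was at 32.3 ± 1.05, 94.9 ± 1.23 and 91.4 ± 8.19 CPM in *WT*, *KD1* and *KD2*, a log2 rise of 1.55 ± 0.0700 and 1.50 ± 0.0700 (adjusted p = 2.4e-10 and 5.3e-10). The lines did not pass the test against each other (log2 -0.05 ± 0.0659, adjusted p = 0.48), though without *KD2* replicate 3 the adjusted p was 0.021. *Irf7* rose by a log2 fold change of 2.51 ± 0.277 in *KD1* (adjusted p = 3.2e-06) and 3.60 ± 0.250 in *KD2* (adjusted p = 2.3e-08). *Irf8* had 0 to 2 counts in *WT*, 4 to 8 in *KD1* and 16 to 24 in *KD2*, at least 1.77-fold and 6.13-fold above *WT*. It could be tested only through its counts in *KD2*, so no p is given. The call in *KD1* was lost without *WT* replicate 2 or *KD1* replicate 3.

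*Stat2*, which carries the signal of type I interferon receptors, rose by a log2 fold change of 1.63 ± 0.0842 in *KD2* (adjusted p = 1.3e-09) and was at 0.93 ± 0.0863 in *KD1*, under the fold limit. *Nlrc5*, the activator of MHC class I genes, rose by 4.29 ± 0.280 in *KD2* (adjusted p = 1.3e-08, and 5.00 without *WT* replicate 1). In *KD1* its value was 1.21 ± 0.392 (adjusted p = 0.017), a call lost without *WT* replicate 2 (0.081) or 3 (0.070). Of the feedback genes, *Socs1* was called in *KD1* (1.12 ± 0.142, adjusted p = 1.3e-05), *Socs3* in *KD1* and *KD2* (1.50 ± 0.0881 and 1.08 ± 0.0879, adjusted p = 4.1e-09 and 1.1e-07, with 0.98 in *KD2* and no call without *WT* replicate 1) and *Usp18* in *KD2* (1.76 ± 0.114, adjusted p = 1.2e-08). *KD2* exceeded *KD1* for *Irf7* and *Nlrc5*, with log2 differences of 1.10 ± 0.177 and 3.07 ± 0.230 (adjusted p = 8.0e-05 and 3.7e-08). For *Irf8*, tested only through *KD2*, the difference was 1.76 ± 0.384.

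Conjugation of LC3-like proteins by the autophagy machinery guides IRG and GBP proteins to their targets, and 17 genes of that step and of the ubiquitin step were tested. One of them, *Ubd*, which encodes the ubiquitin-like protein FAT10, had 0 or 1 counts in *WT*, 87 to 120 in *KD1* and 5 to 11 in *KD2*. It was at least 29.3-fold above *WT* in *KD1* and at least 2.36-fold in *KD2*, and lower in *KD2* than in *KD1* (log2 -3.61 ± 0.256), the direction of *Gm8995*. *Ubd* could be tested only through its counts in *KD1*, so no p is given. *Trim21*, an antibody receptor and ubiquitin ligase, rose in *KD2* (1.51 ± 0.103, adjusted p = 1.9e-08). *Gabarapl1* and *Map1lc3a*, which encode LC3-like proteins, were higher in *KD2* than in *KD1* (1.13 ± 0.0729 and 1.04 ± 0.0980, adjusted p = 7.8e-09 and 3.9e-07). The call of *Map1lc3a* was lost without *KD1* replicate 1 (log2 0.98) or *KD2* replicate 3 (0.94). The median log2 fold change of the 17 was -0.05 in *KD1* and 0.07 in *KD2*.

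GBP proteins also open bacteria to inflammasomes, and 6 of 10 listed genes of that step were tested, with 4 called higher in each line. The share of all genes tested was 9.34% in *KD1* and 14.5% in *KD2*. This list too was written with results of these data known, and nothing is read from its counts. *Casp4*, the mouse caspase-11 that senses lipopolysaccharide, was at 0.194 ± 0.114, 0.397 ± 0.117 and 3.81 ± 0.129 CPM in *WT*, *KD1* and *KD2* (log2 4.33 ± 0.293 in *KD2*). It could be tested only through its counts in *KD2*, so no p is given. Its call in *KD1* (1.09 ± 0.435) was lost with DESeq2 and with the replicate block. That call was also lost without any of several single cultures, among them *WT* replicate 2 and *KD1* replicate 1. *Casp1* was called in *KD2* (2.23 ± 0.0916, adjusted p = 1.6e-10), and *Il18*, a cytokine that it cuts, in *KD1* and *KD2* (1.68 ± 0.279 and 4.11 ± 0.217, adjusted p = 1.5e-04 and 1.7e-09). *Il1b* had 2 to 7 counts in *WT*, 36 to 44 in *KD1* and 4 to 9 in *KD2*. It could be tested only through its counts in *KD1*, so no p is given. Its fitted log2 fold change was 2.88 ± 0.307 in *KD1* and 0.47 ± 0.426, not called, in *KD2*. *Zbp1*, a sensor of Z-form nucleic acid, rose in *KD1* (6.24 ± 0.222, adjusted p = 1.8e-11, and 6.95 without *WT* replicate 3) and in *KD2* (4.78 ± 0.257, adjusted p = 2.0e-09, and 5.49 without *WT* replicate 3). The difference between the lines was -1.46 ± 0.124 for *Zbp1* (adjusted p = 1.4e-07) and -2.40 ± 0.275 for *Il1b*.

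Across the 9 cultures, the genes whose log2 CPM most resembled the mean standardised profile of the 9 tested members were *Enah*, an actin regulator, *Ddx58*, the RNA sensor RIG-I, *Ntn1*, the guidance cue netrin-1, *Adgrg6*, an adhesion receptor, and *Adarb1*, an RNA-editing enzyme. Their Pearson r was between 0.9969 and 0.9985, and 21 of 11312 candidates had an r above 0.99. The members' own r with that profile ran from 0.841 for *Iigp1* to 0.995 for *Igtp*. The 9 points are 3 lines of 3 cultures, so a high r describes the order and spacing of the lines. *Enah* was at 110.7 ± 4.43, 249.9 ± 1.90 and 442.9 ± 29.9 CPM in *WT*, *KD1* and *KD2* (SD, n = 3), and *Ntn1* was at 0.363 ± 0.175, 6.63 ± 0.235 and 65.3 ± 5.38 CPM.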

How the data were processed

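Counts of reads per gene from 9 cultures, as deposited, were used. Before deposit the authors had trimmed reads with fastp, dropped those of low average quality, aligned the rest to GRCm38 (HISAT2) and counted over exons (featureCounts). Strand and multi-mapping settings are not given in the sources used here. The labels do not say whether cultures were independent, so p-values measure the spread between these cultures, which may be technical.

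Counts were tested here with the quasi-likelihood test of edgeR 4.0.16 in R 4.3.3, with TMM scaling, its expression filter and 1 fit of all 9 cultures, with Benjamini-Hochberg adjustment over 15253 genes. The procedure was tested on simulated data. Folds against a group at or under 3 counts per library are lower bounds against that floor, which covers counting error only. Gene models came from GENCODE vM21 (GRCm38), in which 53569 names of 55228 matched, and promoters from RefSeq. Members and gene lists were chosen with earlier results of these data known. Genes of the family, signalling, partner and not-interferon-induced lists are named if called in any comparison, as are the 5 genes (mean log2 CPM above 1) whose profile best correlated with that of the members. Alternatives were other scaling (median-of-ratios factors, library size alone), DESeq2 1.42.0, other filters, the 6 cultures compared, the replicate block, each culture left out and, added after seeing the data, the same for single genes outside the members.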

Additional observations from a re-analysis of the deposited data

Results flagged for a closer look

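These genes outside the members differed between *KD2* and *KD1* in edgeR's quasi-likelihood test (by the rule for called genes given above), so their change against *WT* was not the same in the lines. Values are fitted log2 fold changes of *KD2* against *KD1*. The 9 genes of the families that could be tested only through their counts in *KD2* are included, and their calls are no support. The same holds for *Irf8* and *Casp4*, tested only through *KD2*, and for *Ubd* and *Il1b*, tested only through *KD1*. Among GBP genes they were 1.14 for *Gbp2b*, 3.68 for *Gbp4*, 2.67 for *Gbp5*, 4.57 for *Gbp8* and 3.69 for *Gbp9*. Among IRG genes they were 4.94 for *Tgtp1*, 5.47 for *Gm12185*, 3.56 for *Gm4951*, 5.86 for *9930111J21Rik1* and 5.30 for *9930111J21Rik2*. The very large GTPase genes had 6.50 for *Gm4759* and -1.76 for *Gm8995*, and the Mx genes had 2.04 for *Mx1* and 3.42 for *Mx2*.

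In *Gm12185*, *Gm4951*, *9930111J21Rik1* and *Gm4759*, *KD1* was at or under 3 counts in every culture, so their fitted values depend on the prior count, and against the floor *KD2* was at least 6.77-fold, 5.74-fold, 15.4-fold and 33.7-fold higher. The fitted values of genes with very few *KD1* counts depend on single cultures. *Tgtp1* was at 6.40 without *KD1* replicate 1, *Gm12185* at 7.26 and *9930111J21Rik1* at 8.43 without *KD1* replicate 2, and *Gm4951* at 4.79 and *Gm4759* at 7.35 without *KD1* replicate 3.

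Among the GTPases not known as interferon-induced the values were 2.29 for *Atl1*, 4.39 for *Dnm1* and -1.30 for *Dnm3*. Signalling genes had -1.04 for *Ifngr2*, 1.10 for *Irf7*, 1.76 for *Irf8* and 3.07 for *Nlrc5*. Genes of the vacuole step had 1.13 for *Gabarapl1*, 1.04 for *Map1lc3a* and -3.61 for *Ubd*, and those of the inflammasome step had 1.66 for *Casp1*, 3.23 for *Casp4*, -2.40 for *Il1b*, 2.43 for *Il18* and -1.46 for *Zbp1*.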

How the results depend on the processing

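Counts of called genes changed most with a minimum of 10 counts in every culture, which removes genes that are near 0 in 1 line. All genes called then numbered 1319, 1698 and 1914 for *KD1* against *WT*, *KD2* against *WT* and *KD2* against *KD1*, in place of 2568, 3235 and 3556. Other GTPases of the families numbered 1 in each comparison (in place of 6, 14 and 14), since 1 gene was left to test, and partner genes 0, 2 and 3 (in place of 5, 6 and 8). The 0 came from edgeR's test on 17 genes. Signalling genes numbered 4 in *KD2* against *WT* (in place of 7) and 1 in *KD2* against *KD1* (in place of 4). With no filter beyond 1 count, other GTPases called in *KD2* numbered 22. The cause of the other shifts was not tested.

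The sum of the listed very large GTPase genes, most of whose counts were *Gm8995*, was at log2 -1.09 in *KD2* against *KD1*. *Gm4070* by itself was at 1.18. Leaving out 1 culture at a time, *Iigp1* in *KD1* ranged from -0.032 to 1.68 and *9930111J21Rik1* in *KD1* from -2.79 to 0.33, both at the floor. With library size alone, *Irf1* in *KD2* against *KD1* was at 0.071, and the median of all genes shifted by 0.11 in *KD2* against *WT* and by 0.13 in *KD2* against *KD1*.

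Replicate numbers did not pair the cultures. Deviations of same-numbered cultures correlated between -0.0652 and 0.0789, those of others between -0.101 and 0.107. Under the replicate block, 2560, 3227 and 3552 genes were called, and of the named genes outside the members only *Casp4* in *KD1* lost its call.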
